A study of Homo sapiens with 4 samples.

Results

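The comparison described here set the peaks of a c-MYC antibody against those of non-specific immunoglobulin (IgG) in the same DMSO-treated cells. Chromatin immunoprecipitation followed by sequencing (ChIP-seq) pulls down DNA fragments with an antibody, and a peak is a place where the sequenced tags pile up above the background of that library. The cells were MIA PaCa-2, an established line of human pancreatic ductal adenocarcinoma, kept for 8 h in DMSO, the solvent of the drugs in the series. The members were all peaks of both DMSO lists, 9552 from the c-MYC library and 2966 from the IgG library, which together made 12518 of the 28327 peaks in the series. The other libraries, made with the c-MYC antibody after AMG510 (100 nM) or trametinib (10 nM, a MEK inhibitor) for the same 8 h, were used only to see whether a DMSO peak was called again. Each of the 4 groups was 1 library of 1 cell line, so no difference below has a replicate check, and no test was made. Intervals are 95% intervals and cover counting error only.

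c-MYC is a transcription factor that binds DNA as a dimer with MAX. The dimer recognises the E-box, whose canonical form is CACGTG, and most of its known sites lie at the start sites of active genes in open chromatin. Genes for ribosomes, translation and nucleotide synthesis are textbook targets. IgG has no target on chromatin, so an IgG library shows where tags pile up without one, for instance in repeats that the reference holds in too few copies.

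The libraries were similar in depth, with 24000000 tags in peak calling for c-MYC and 22700000 for IgG, but not in pileup. The median summit pileup was 13 tags in the c-MYC list and 10 in the IgG list, and the lowest pileups that passed over the genome-wide background were 8 and 7 tags. Most peaks therefore stood only a few tags above the limit. A site without an IgG peak may still have held IgG tags below that limit, and its IgG level is not known. Pileups also grow with the length to which tags are extended. That length, taken here as the shortest peak width, was 177 bp for c-MYC and 143 bp for IgG. Tag counts of the libraries are therefore not strictly comparable, and the size of this effect was not tested. The median fold enrichments were close, 4.60 for c-MYC and 4.55 for IgG.

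The lists had few sites in common. An IgG peak overlapped 191 of the 9552 c-MYC peaks by at least 1 bp, a share of 2.00% (Wilson interval 1.74 to 2.30), and a c-MYC peak overlapped 195 of the 2966 IgG peaks, a share of 6.57% (5.74 to 7.52). This left 9361 c-MYC-only peaks and 2771 IgG-only peaks. The IgG share depended strongly on the height of the peaks. Of the 180 IgG peaks with a score above 60 (a −log10 q-value above 6), a c-MYC peak with such a score overlapped 123, or 68.3% (61.2 to 74.7).

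Stretches of 30 bases from the GRCh38 plus strand are given for some of the highest peaks, with the E-box in capitals. The first 8 are centred on the E-box nearest to the summit of a c-MYC-only peak, at promoters and then at noncoding genes. They need not hold the summit itself, and high c-MYC-only peaks without an E-box nearby were left out. The E-box in these 8 is therefore there by choice and is not a result.
NME1-NME2, chr17:51153581-51153610: agtgctgcgaacCACGTGggtcccgggcgc
PPRC1, chr10:102133677-102133706: aggcagcgggtcCACGTGggggcggggaag
SNX5, chr20:17968608-17968637: cgagcagggcgcCACGTGctcccccagagc
DUSP2, chr2:96145214-96145243: ccgcgcggcgcgCACGTGgcgccggcagaa
PRDM15, chr21:41879524-41879553: cggcccccctccCACGTGgcacggccctgc
MRPL3, chr3:131502888-131502917: ccacgccaccgcCACGTGgacgcagtagcc
ENSG00000286874, chr7:4642101-4642130: ctgccggggcgcCACGTGgtgcgcacgtgg
SNHG26, chr7:22854306-22854335: gcaggagccgacCACGTGgctccggggcta
At ENSG00000286874 a second CACGTG, left in lower case, follows in the same stretch. The next 6 are centred on the summits of peaks that both antibodies shared (the first 3) or that only IgG had, each named by the nearest gene of any kind.
FAM230C, chr13:18212053-18212082: tgcattcaaggtatgttcatactggcctgt
DUX4L26, chr3:75669207-75669236: gaaggcaggcgaaagcggaccgccgtcacc
ENSG00000286146, chr21:8420449-8420478: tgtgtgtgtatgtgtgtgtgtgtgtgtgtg
ENSG00000234640, chr10:128464566-128464595: gacttctcctcctcctccccatcctcccct
ENSG00000261507, chr16:33336785-33336814: ttggctggcttggctggctggatggcttgg
ENSG00000289929, chr3:195626503-195626532: acatgcacacacgcgcacacaCACGTGcac
The last 3 and the one at ENSG00000286146 are simple repeats. The IgG-only peaks nearest to ROCK1P1 and FRG1EP, both of larger fold enrichment than these last 3, were left out. Their stretches are not simple repeats by their letters, so the 3 shown do not stand for the highest IgG-only peaks. The repeat at ENSG00000289929 holds an E-box by its letters, and that peak was the only 1 of the 10 highest IgG-only peaks with an E-box near its summit.

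The lists differed in their position against genes. A promoter peak had its summit no more than 1 kb from where transcription of a protein-coding transcript starts (the transcription start site, TSS). Of the c-MYC-only peaks, 4608, or 49.2% (48.2 to 50.2), were promoter peaks, whereas 100 of the IgG-only peaks, or 3.61% (2.98 to 4.37), were. The difference was 45.6 percentage points (Newcombe interval 44.4 to 46.8). A grid of 1 position per kb over the placed chromosomes put 2.46% of the genome in promoters, so the c-MYC-only share was 20.0 times and the IgG-only share 1.47 times that of the genome.

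The IgG-only peaks were spread much like the grid in the other classes too. Introns held 54.9% of IgG-only summits and 55.4% of grid positions, and DNA outside any gene held 35.9% and 38.9%. Among c-MYC-only summits these classes held 27.7% and 18.6%. The intergenic share was thus 17.4 points lower than for IgG (the difference, c-MYC-only minus IgG-only, was −17.4, −19.3 to −15.4). Coding exons and untranslated regions (UTR) outside promoters held few summits of either list. Coding exons took 1.11% of c-MYC-only and 1.23% of IgG-only summits, with a difference whose interval holds 0 (−0.636 to 0.303 points).

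**Figure D1:**
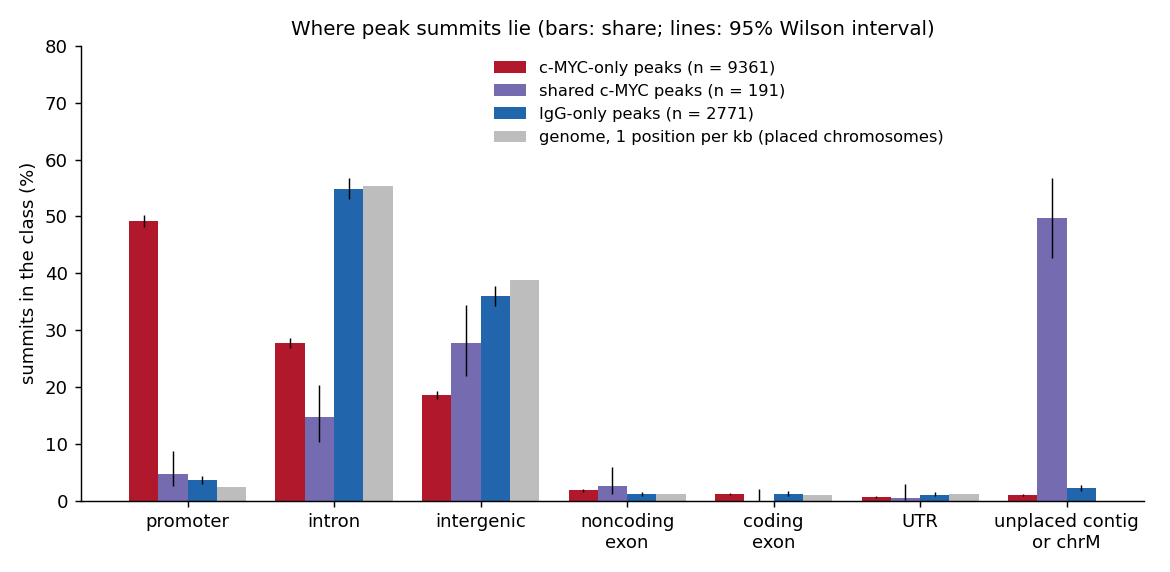
Share of peak summits in each class of position (y axis, %) for c-MYC-only peaks, c-MYC peaks shared with IgG and IgG-only peaks, with 95% Wilson intervals, beside a grid of the genome that covers the placed chromosomes only. c-MYC-only summits reach 49.2% at promoters, shared summits 49.7% on unplaced contigs and the mitochondrial chromosome, and IgG-only summits follow the grid.

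Shared peaks were split between placed chromosomes and other sequence. Of the 191 c-MYC peaks with an IgG peak, 95 (49.7%, 42.7 to 56.8) were on unplaced contigs or the mitochondrial chromosome, 53 were intergenic, 28 intronic and 9 at promoters. Of the c-MYC-only peaks 87 (0.929%) lay there, and of the IgG-only peaks 61. Shared peaks were tall, with a median of 27 tags in the c-MYC library, and 7 of the 10 of largest fold enrichment were on contigs. The one of largest fold enrichment, 109 bp from the start of the noncoding gene FAM230C on chromosome 13 (18211900 to 18212227), held 157 tags in the c-MYC library and 142 in the IgG library. At the pseudogene DUX4L26 on chromosome 3 (75669093 to 75669423) the tags were 90 and 67.

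At these shared sites the pileups of the antibodies were similar. Only sites called in both libraries enter here, so sites high with c-MYC and below the IgG limit were left out by definition. Scaled to the tags each library had in peak calling, the ratio of c-MYC to IgG at the summit had a median of 1.11, with the middle 50% of sites between 0.946 and 1.30. This scaling left out the longer tag extension of the c-MYC library, which raises its pileup. The ratio was above 2 at 5 sites and under 0.5 at 1. The site under 0.5 was the promoter of PGK1, which encodes the glycolytic enzyme phosphoglycerate kinase. It held 13 tags with c-MYC and 29 with IgG, a ratio of 0.424. The highest ratio, 3.05, was at the promoter of ARHGDIA, with 29 tags against 9. At both genes the summits of the antibodies lay apart, by 256 bp at PGK1 and 322 bp at ARHGDIA, where the median over all shared peaks was 27 bp, so these ratios compare different positions in overlapping peaks. The other shared promoter peaks were at EGLN1, TPT1, PDF, GRHL1, SLCO4A1, ADAP1 and SNX16, with 14 to 29 tags in the c-MYC library.

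Among 19663 protein-coding genes, a c-MYC promoter peak was present at 4761, an IgG promoter peak at 110 (0.559% of all) and both at 38. A c-MYC promoter peak without an IgG one was thus present at 4723 genes, or 24.0% of all, and at 2366 genes (12.0%) it had a fold enrichment above 5. At the 38 genes with both, the peaks of largest fold enrichment overlapped at 8. The c-MYC pileup was higher at 33 of the 38, equal at 1 and lower at 4, with medians of 19 and 10 tags. Over all c-MYC-only and IgG-only promoter peaks the medians were 16 and 10 tags. None of these counts was corrected for the longer tag extension in the c-MYC library. At LFNG, a glycosyltransferase that modifies Notch, the c-MYC peak held 36 tags and the IgG peak 8. At GEMIN4, part of the SMN complex that assembles spliceosomal particles, they held 42 and 13 tags. KDM2A, a histone lysine demethylase, was a contrary case with 9 tags for c-MYC and 14 for IgG. At LFNG, GEMIN4 and KDM2A the peaks of the antibodies did not overlap, so these tags were counted at different positions.

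The 15 genes with the highest c-MYC-only promoter peaks by fold enrichment had 52 to 86 tags at the summit and fold enrichments between 12.6 and 16.7. By definition no IgG peak overlapped any of them, and all 15 were called again in both drug libraries. Tall peaks often were. In the highest 10% of c-MYC-only peaks by fold enrichment, 67.1% were called again in AMG510 and 61.6% in trametinib. Their summits lay at most 653 bp from a TSS, and 10 of the 15 had an E-box within 100 bp. The leading peak was at RPL5, a protein of the large ribosomal subunit, in intron 1 on chromosome 1 (92832044 to 92832545). It held 86 tags (exact Poisson interval 68.8 to 106) and had no E-box within 1 kb of its summit.

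Others of these genes act in ribosomes or mitochondria. RPS24, a protein of the small ribosomal subunit, held 63 tags in intron 1. MRPL3, a protein of the mitochondrial ribosome, held 60 tags in the first exon, with an E-box 33.5 bp from the summit. PPRC1, a coactivator of nuclear genes for mitochondria, held 72 tags in intron 1, with an E-box 1.5 bp away.

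Metabolic enzymes and signalling proteins were also among the 15. At NME1-NME2, a read-through gene of neighbouring nucleoside diphosphate kinase genes, the summit lay 1 bp from a TSS on chromosome 17, held 68 tags and had an E-box 4.5 bp away. PEMT, which methylates phosphatidylethanolamine to phosphatidylcholine, held 59 tags and had no E-box within 1 kb. DUSP2, a phosphatase of MAP kinases, held 67 tags in coding exon 1. COLEC11, a collectin of innate immunity, held 68 tags 214 bp upstream of a TSS, in intron 2 of the canonical one.

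Chromatin and transcription regulators made up a further part. CITED2, a transcriptional co-regulator, held 81 tags upstream of its TSS. The zinc finger genes ZNF131 and PRDM15 held 78 and 75 tags, 10 and 23 bp from a TSS. BRWD1, a bromodomain protein, held 52. The remaining genes were PRRC2B with 84 tags, PFN2, which encodes the actin-binding profilin, with 72, and SNX5, a sorting nexin, with 67 tags and an E-box 0.5 bp from the summit.

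The highest IgG-only promoter peaks were far lower. They were at KDM2A, TNKS1BP1, STARD13, GEMIN4 and TRPM4, with 12 to 14 tags, fold enrichments of 5.55 to 6.80 and no E-box within 100 bp. IgG-only refers here to the peak and not to the promoter. KDM2A, TNKS1BP1 and GEMIN4 also had a c-MYC promoter peak that did not overlap it, of 9, 20 and 42 tags. None of the 5 IgG-only peaks overlapped a peak in either drug library. Over all 100 IgG-only promoter peaks, 1 overlapped an AMG510 peak and 3 a trametinib peak. Among all IgG-only peaks, the 10 of largest fold enrichment held 16 to 23 tags. Of these, 5 were on contigs, and 1 lay within 1 kb of a TSS of any kind, 932 bp from that of the noncoding gene ROCK1P1 on chromosome 18.

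c-MYC-only promoter summits gathered just downstream of the start. Their median position was 84 bp downstream of the nearest protein-coding TSS. Of 4608 summits, 66.9% (65.5 to 68.2) were downstream and 56.6% (55.2 to 58.1) within 200 bp. The bin from 0 to 100 bp downstream held the most, 20.2%, and the bin from 100 to 200 bp held 17.5%. The 100 IgG-only promoter summits had no such peak, with 49.0% (39.4 to 58.7) downstream and 28.0% (20.1 to 37.5) within 200 bp. Summits as far as 900 to 1000 bp upstream made up 0.369% of the c-MYC-only set.

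**Figure D2:**
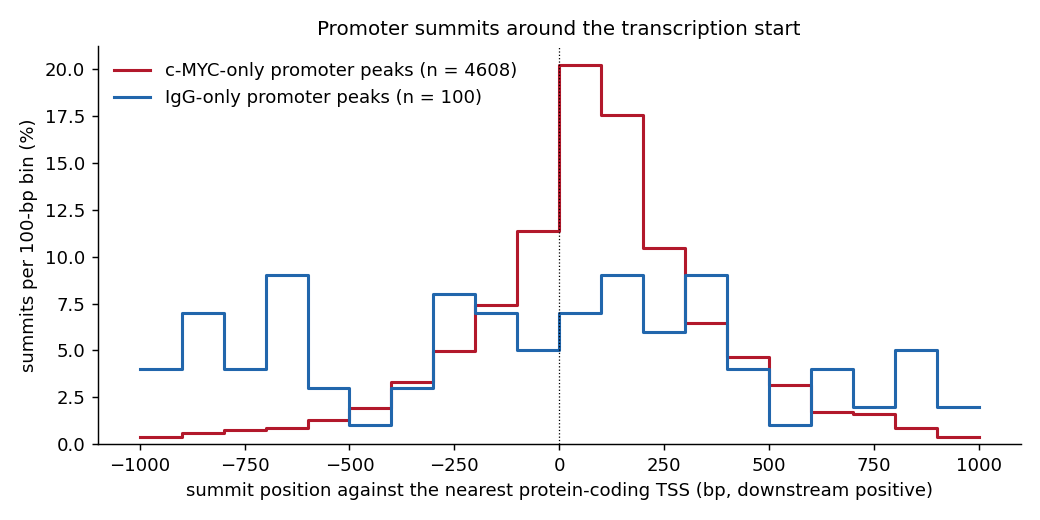
Position of promoter summits against the nearest protein-coding TSS (x axis, bp, downstream positive) as the share of summits per 100-bp bin (y axis, %), for c-MYC-only and IgG-only promoter peaks. The c-MYC-only curve rises to 20.2% just downstream of the TSS, and the IgG-only curve, from 100 peaks, stays below 10% in every bin.

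The E-box was sought as the letters CACGTG, which read the same on both strands, in the 201 bases around each summit. It was present in 11.5% of c-MYC-only peaks (10.8 to 12.1) and in 2.60% of IgG-only peaks (2.07 to 3.26), a difference of 8.86 points (7.95 to 9.71). In windows of the same length 1 kb to either side the shares were 2.73% and 1.75%. At promoters the share was 16.9% for c-MYC-only (15.9 to 18.0) and 4.00% for IgG-only peaks (1.57 to 9.84). Outside promoters it was 6.16% (5.52 to 6.88) and 2.55% (2.01 to 3.21), so a difference of 3.62 points (2.69 to 4.51) was present there as well. Shared c-MYC peaks had it in 5 of 191, or 2.62% (1.12 to 5.98).

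E-boxes stood close to the summits. In c-MYC-only promoter peaks the nearest E-box of those in the window had its centre a median of 36.5 bp from the summit, and outside promoters the median was the same. In IgG-only peaks it was 47.0 bp. In bins of 50 bp, c-MYC-only promoter peaks held 5.92 E-boxes per 100 peaks in the bin just after the summit, and 1.09 and 0.651 in the outermost bins, 950 to 1000 bp before and after it.

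**Figure D3:**
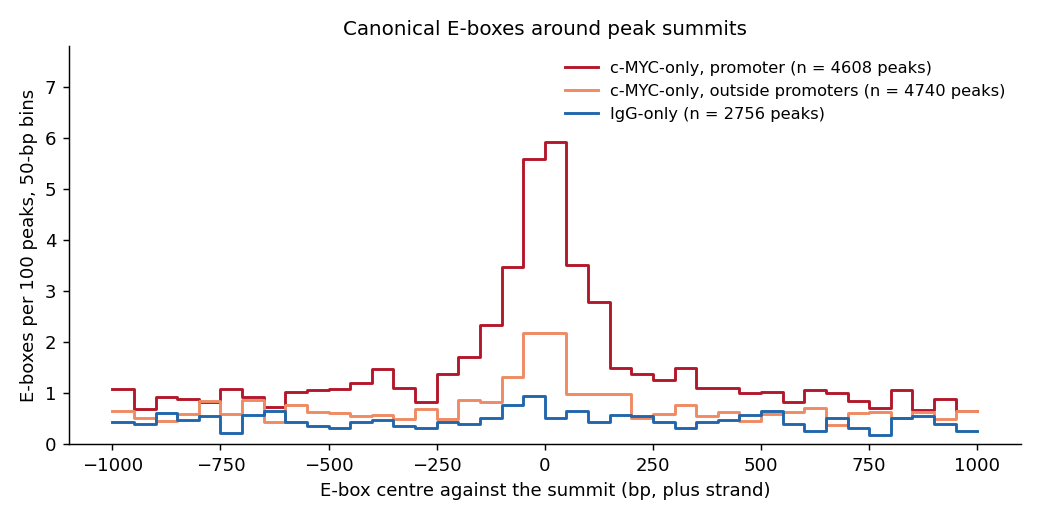
Number of canonical E-boxes per 100 peaks in 50-bp bins (y axis) against distance of the E-box centre from the summit (x axis, bp), for c-MYC-only promoter peaks, c-MYC-only peaks outside promoters and IgG-only peaks, without peaks near the end of a sequence. The promoter curve reaches 5.92 and the curve outside promoters 2.17 at the summit, while the IgG-only curve stays below 1 throughout.

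Other E-box forms were sought in the same way. CACGCG, sought on both strands, was near the summit in 13.7% of c-MYC-only (13.0 to 14.4) and 0.505% of IgG-only peaks (0.301 to 0.846). CATGTG was at 11.1% and 13.1% over all peaks, a difference of −2.04 points (−3.49 to −0.673), but outside promoters the sign turned, with 14.2% and 13.1% and an interval that holds 0 (−0.467 to 2.77). For CACCTG the shares were 19.2% and 18.0%, with a difference whose interval holds 0 (−0.466 to 2.81 points). Outside promoters they were 21.6% and 18.0%, a difference of 3.62 points (1.73 to 5.46) and as large as that of CACGTG there. CAGCTG was at 10.2% and 8.73%, 1.48 points apart (0.220 to 2.66), with an interval that holds 0 outside promoters (−0.583 to 2.13). The forms with a CG step move with base composition, which differed between the sets. The 201 bases around the summit had a median GC content of 72.1% in c-MYC-only promoter peaks, 47.8% in c-MYC-only peaks outside promoters and 42.3% in IgG-only peaks outside promoters. The part of base composition in the motif shares was not tested.

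The bases beside the E-box also differed with distance. With both strands counted together, CCACGTGC made up 28.6% (25.6 to 31.7) of the 844 E-boxes near c-MYC-only promoter summits and 16.1% (13.8 to 18.8) of the 831 E-boxes at least 500 bp from the same summits. CCACGTGG made up 20.3% (17.7 to 23.1) and 11.7% (9.66 to 14.0). TCACGTGA moved the other way, from 8.42% far from the summits (6.71 to 10.5) to 2.25% near them (1.45 to 3.49). Among the 78 E-boxes near IgG-only summits TCACGTGA was at 10.3% (5.29 to 19.0) and CCACGTGC at 11.5% (6.19 to 20.5).

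Promoter sequence was then read from the gene side, in RefSeq windows of 300 bases (GRCh38.p14, 250 before to 50 after a TSS) that matched 15277 of the 19663 genes by symbol. The window held CACGTG at 8.89% of all these genes, at 13.4% (12.4 to 14.5) of the 3891 with a c-MYC promoter peak and no IgG peak, and at 7.53% (3.69 to 14.7) of the 93 with an IgG promoter peak. Windows rich in CpG, with a GC content above 50% and an observed to expected CpG ratio above 0.6, made up 64.0% of all and 86.6% (85.5 to 87.6) of the c-MYC set, against 63.4% (53.3 to 72.5) of the IgG set. A c-MYC promoter peak was present at 45.0% (42.0 to 48.0) of genes whose window was CpG-rich and held an E-box, and at 33.2% (32.2 to 34.2) of CpG-rich windows without one. In windows poor in CpG the shares were 14.9% (11.3 to 19.4) with an E-box and 9.19% (8.43 to 10.0) without. Both features thus went with c-MYC peaks, each within the levels of the other.

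c-MYC-only peaks of higher fold enrichment were more often promoter peaks and more often had an E-box. In the lowest 10% by fold enrichment 34.0% (31.0 to 37.1) were promoter peaks and 5.66% (4.35 to 7.33) had an E-box. In the highest 10% the shares were 86.1% (83.8 to 88.2) and 33.1% (30.1 to 36.2). The IgG-only list showed no such rise. Its lowest 10% had 3.61% promoter peaks (1.97 to 6.52) and 1.81% with an E-box, and its highest 10% had 1.80% (0.771 to 4.14) and 1.44%.

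The gene groups below were chosen with earlier results of these data known, and are described by their counts beside the 24.0% of all protein-coding genes with a c-MYC promoter peak and no IgG one. No gene of the groups named in the next paragraphs as synthesis, translation, lipid or network genes had an IgG promoter peak. Only 0.559% of all protein-coding genes had one, so its absence from groups of this size says little about them.

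Genes of the cytosolic ribosome had the highest share of the groups. Of 89 genes for cytosolic ribosomal proteins, 71 (79.8%, 70.3 to 86.8) had a c-MYC promoter peak, and 62 (69.7%) had one with a fold enrichment above 5, where 12.0% of all genes did. Their median pileup was 32 tags, in contrast to 16 over all genes of the c-MYC set, and 58 of the 71 summits were downstream of the TSS. RPL5, RPS24, RPS23 and RPL13 had the largest fold enrichments, with 86, 63, 73 and 88 tags. The E-box was within 100 bp of 10 of these 71 summits, where 16.9% of all c-MYC-only promoter peaks had one. Genes for mitochondrial ribosomal proteins had a peak at 33 of 78 (42.3%, 32.0 to 53.4), with a median of 16 tags. After MRPL3, the largest fold enrichments were at MRPL4, MRPS30 and MRPL36, with 29, 26 and 29 tags.

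Genes that build ribosomes and nucleotides followed. Of 50 genes for ribosome biogenesis and nucleolar proteins, 36 (72.0%, 58.3 to 82.5) had a peak, with 10 to 86 tags. NPM1, the nucleolar chaperone nucleophosmin, held 86 tags, and BYSL, needed to mature the small subunit, 45. POLR1B, a subunit of RNA polymerase I, held 46 and PPAN, needed for the large subunit, 51. An E-box lay within 100 bp of the summit at the first 3 of these and at 13 of the 36. The share over all c-MYC-only promoter peaks was 16.9%. Those without a peak included PES1, WDR12, POLR1A and MYBBP1A. Of 30 enzymes of nucleotide synthesis and one-carbon metabolism, 23 (76.7%, 59.1 to 88.2) had a peak. NME1 and NME2 held 68 and 65 tags, CTPS1, a CTP synthase, 40 and ATIC, which ends purine synthesis, 29. The purine enzymes PPAT and PAICS face each other across 1 start region and shared a single peak of 29 tags, with an E-box 53.5 bp from its summit. TK1, RRM1 and SHMT1 were among those without one.

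Translation factors had a peak at 22 of 39 genes (56.4%, 41.0 to 70.7). EIF4G1, a scaffold of the cap-binding complex, held 84 tags, EIF5A 81, and EIF3D and EIF3E, subunits of an initiation complex, 35 and 33. The subunits of that complex without a peak were EIF3A, EIF3C and EIF3F to EIF3M. Of 37 aminoacyl-tRNA synthetase genes, which charge tRNAs with amino acids, 19 (51.4%, 35.9 to 66.6) had one, with 11 to 32 tags. FARS2, YARS1, GARS1 and TARS1 led by fold enrichment with 32, 24, 27 and 32 tags, and HARS1 and HARS2 shared theirs. Their median was 18 tags, below the 32 of cytosolic ribosomal proteins.

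MYC's own network had a peak at 8 of 13 genes (61.5%, 35.5 to 82.3). The antagonists of MYC that also pair with MAX were MXD1 with 41 tags, MXD3 with 38, MNT with 26 and MXI1 with 19. All 4 except MXI1 had an E-box within 100 bp of the summit. The partner MAX held 18 tags, MGA 11, MYCL 15 and MLXIP, a partner of MLX, 22. No peak was present at the promoters of MYC, MYCN, MXD4, MLX and MLXIPL. The 13 lipid synthesis genes were those the study named as depleted in its high-dose CRISPR screen, so they were not picked by their peaks. The study also reported c-MYC binding at the FASN promoter, so their count is not fully independent evidence. The 13 lipid genes had a peak at 6 (46.2%, 23.2 to 70.9), an interval that holds the 24.0% of all genes. LSS, lanosterol synthase, held 31 tags and FASN, fatty acid synthase, 32. ELOVL1, a fatty acid elongase, held 20 tags, KDSR, a reductase of sphingolipid synthesis, 18, ACACA, acetyl-CoA carboxylase, 17 and SLC25A1, the mitochondrial citrate carrier, 16. FDFT1, SQLE, FDPS, HSD17B12, TECR, SPTLC1 and SPTLC2 had none.

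Genes used in few cell types were rarely in the c-MYC set. Of 381 olfactory receptor genes, 1 (0.262%, 0.0463 to 1.47), OR2L8, had a c-MYC promoter peak, of 13 tags, and 1, OR2A14, had an IgG promoter peak. Of 94 keratin-associated protein genes 1, KRTAP4-6, had a c-MYC peak. Among 25 pancreatic acinar enzyme genes, markers of another cell type of the pancreas, there was 0, which allows a share of up to 12.0% by the limit of 3 counts and 13.3% by the Wilson interval. Of 10 globin genes 1, HBQ1, had a peak, of 14 tags and 951 bp from its TSS, and the interval of that share (1.79 to 40.4) holds the 24.0% of all genes. The 508 zinc finger genes named ZNF had one at 136 (26.8%, 23.1 to 30.8), close to the share of all genes, and an IgG peak at ZNF611 and ZNF839. Replication-dependent histone genes had one at 13 of 69 (18.8%, 11.4 to 29.6), where neighbouring genes shared peaks so that only 9 distinct ones were involved.

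**Figure D4:**
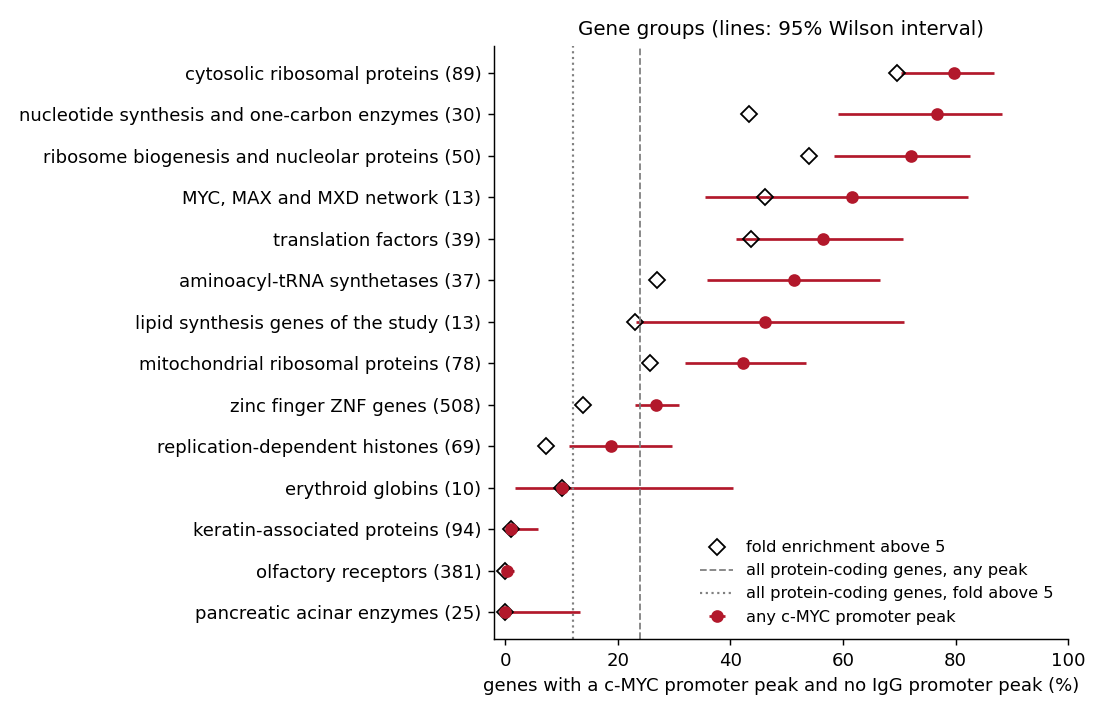
Share of each gene group with a c-MYC promoter peak and no IgG promoter peak (x axis, %; circles with 95% Wilson intervals) and with such a peak of fold enrichment above 5 (diamonds), with the number of genes in parentheses. Dashed and dotted lines mark all protein-coding genes (24.0% and 12.0%), and the groups run from 79.8% for cytosolic ribosomal proteins to 0 for pancreatic acinar enzymes.

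Divergent gene pairs, with start sites on opposite strands no more than 1 kb apart, made up 14.4% of all protein-coding genes, 21.9% (20.8 to 23.1) of the genes in the c-MYC set and 7.27% (3.73 to 13.7) of those with an IgG promoter peak. A single summit can count for both genes of a pair.

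Away from protein-coding promoters the c-MYC antibody also marked starts of noncoding genes. On placed sequence, 430 of 4666 c-MYC-only peaks outside promoters (9.22%, 8.42 to 10.1) lay within 1 kb of a noncoding TSS, against 73 of 2610 IgG-only peaks (2.80%, 2.23 to 3.50). For long noncoding RNA genes these shares were 6.24% (5.58 to 6.97) and 1.88% (1.42 to 2.47). Over all these peaks, the median distance to a protein-coding TSS was 41.4 kb for c-MYC-only and 54.6 kb for IgG-only peaks.

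Of the 8 c-MYC-only peaks outside promoters with the largest fold enrichment, 7 lay within 1 kb of a noncoding TSS, 4 had an E-box and all 8 were called again in both drug libraries. In the highest 10% of all c-MYC-only peaks, 67.1% were called again in AMG510 and 61.6% in trametinib. The highest in the whole c-MYC-only set, with a fold enrichment of 21.4 and 130 tags (109 to 154), was 155 bp from the start of the long noncoding RNA gene ENSG00000286874 on chromosome 7 (4641910 to 4642349), and FOXK1 was the nearest protein-coding gene. MIRLET7A1HG, the host gene of a cluster of let-7 microRNAs, held 75 tags on chromosome 9 (94166368 to 94166720). SNHG15, SNHG17 and SNHG26, host genes whose introns carry small nucleolar RNAs, held 97, 88 and 51 tags. RNVU1-15 and RNVU1-14, variant genes of the spliceosomal U1 RNA, held 29 tags each. The last of the 8, with 43 tags and an E-box 44.5 bp from its summit, was 2419 bp from the pseudogene CICP13.

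The sets were also compared with the drug libraries, made with the same c-MYC antibody, which had 10378 peaks for AMG510 and 5431 for trametinib. The sets were defined by recurrence in DMSO. Shared peaks had been called in both DMSO libraries, and IgG-only peaks had no peak with the c-MYC antibody. Part of the differences below is therefore built into the sets. Of c-MYC-only promoter peaks, 33.1% (31.8 to 34.5) overlapped an AMG510 peak and 27.7% (26.5 to 29.0) a trametinib peak. Outside promoters these shares were 5.83% (5.20 to 6.53) and 4.48% (3.93 to 5.11). IgG-only peaks were overlapped least, with 1.52% (1.12 to 2.04) and 1.12% (0.789 to 1.58). Among shared peaks 83.2% (77.3 to 87.9) of the 191 had an AMG510 peak and 75.9% (69.4 to 81.4) a trametinib peak. Most of the 191 lay outside promoters, and of the 9 shared promoter peaks 4 had an AMG510 peak and 1 a trametinib peak. These libraries differ from DMSO by the drug as well as by the preparation, and these cannot be told apart.

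By chromosome, the c-MYC-only peaks outside promoters and the IgG-only peaks were dense in the same places. Chromosome 5 had 3.18 c-MYC-only peaks outside promoters and 1.37 IgG-only peaks per Mb, whereas chromosome 4 had 0.210 and 0.289, chromosome 15 had 0.343 and 0.255, and chromosome 11 had 0.429 and 0.244. Over the 23 chromosomes 1 to 22 and X, Pearson's r between these densities was 0.90 and Spearman's rank correlation 0.94, as a description, since all points come from the same 2 libraries. c-MYC-only promoter peaks went with the number of genes per Mb (Pearson 0.92, Spearman 0.66) and also with the IgG density (Pearson 0.50, Spearman 0.57). By rank these correlations were close. Scaled to genes, promoter peaks still ranged from 11.1 per 100 protein-coding genes on X and 13.0 on chromosome 11 to 34.0 on chromosome 18. IgG-only peaks per Mb were 0.397 on X, 0.244 on chromosome 11 and 1.41 on chromosome 18. Chromosome 19, with 1.40 IgG-only peaks per Mb, had only 19.9 promoter peaks per 100 genes. What sets these densities was not tested.

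**Figure D5:**
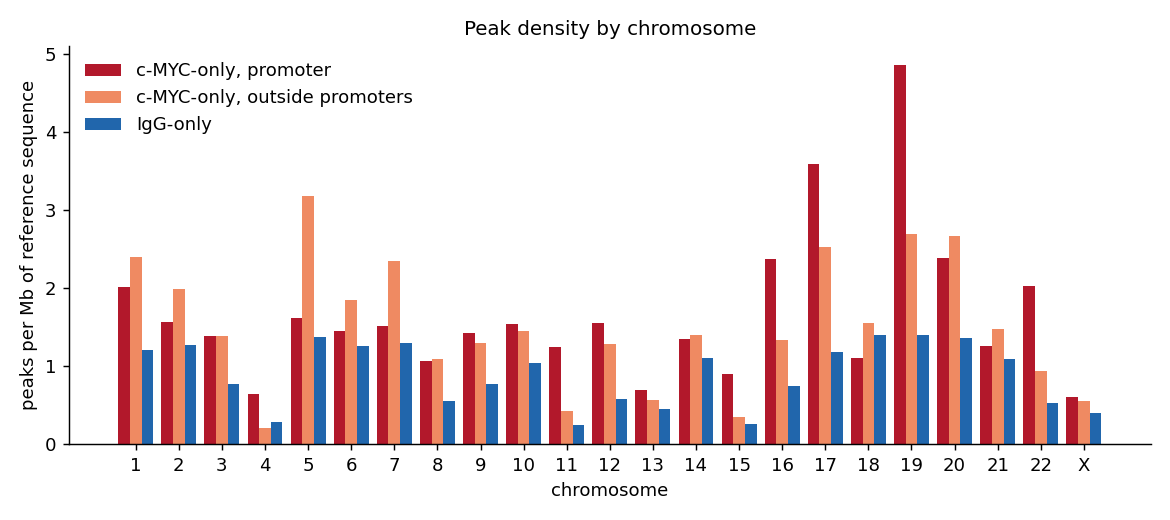
Peaks per Mb of reference sequence (y axis) on each chromosome (x axis) for c-MYC-only promoter peaks, c-MYC-only peaks outside promoters and IgG-only peaks. Chromosomes 4, 11 and 15 are low and chromosome 5 is high for both peaks outside promoters (0.210 to 3.18 per Mb) and IgG-only peaks (0.244 to 1.37 per Mb).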

How the data were processed

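Sample titles gave the groups. Per the study's methods and processing notes, the authors trimmed reads (Trimmomatic 0.39), aligned them to GRCh38 (BWA 0.7.17), filtered on mapping quality (SAMtools 1.9), removed duplicates (Picard), converted alignments to intervals (bedtools 2.27.1), called peaks per library with MACS2 2.2.7.1 at default settings and removed peaks on the ENCODE exclusion list. No source says that IgG served as the control in calling. The deposited lists hold, per peak, a score (a whole number, 10 times −log10 q), a ratio to the background called fold enrichment, and the −log10 p-value and −log10 q-value. Tags in near-identical copies may be split, so such genes are uncertain.

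Pileups in whole tags were solved from the fold enrichment and p-value (100% of peaks, checked on simulated data). The depth is the genome-wide background times a genome size of 2700000000 bp over the shortest peak width. Mates of a pair can both count, so counting intervals are too narrow. Genes came from GENCODE 44 and the canonical transcript gave exons and introns. Positions are 1-based. Analyses used python 3.11.15, pandas 2.3.3, scipy 1.17.1 and statsmodels 0.14.6.

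The members, gene lists and comparisons were chosen with earlier results of these data known. Genes and regions were named by a rule: the 15 c-MYC-only promoter genes, 8 c-MYC-only peaks outside promoters, 10 shared and 10 IgG-only peaks and 5 IgG-only promoter peaks of largest fold enrichment, up to 4 members per gene list (by fold enrichment) and all of the lipid and MYC network lists. Other names, given as extremes, contrary cases or absent members, were picked after their values were seen. With 1 library per group no test was possible. Alternatives varied the overlap, the promoter window, the TSS set, the E-box window and thresholds on score and fold enrichment.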

Additional observations from a re-analysis of the deposited data

How the results depend on the processing

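Of 26 values under alternatives, for 6 results, 0 changed sign, 4 stayed within the counting interval (or, for genes, within 1.5 times) and 22 moved beyond it. These intervals are narrow, cover counting error only, and the causes of the shifts were not tested. The share of c-MYC peaks with an IgG peak was 1.63% with an overlap of at least 50% of both peaks, 2.71% with summits within 1 kb, 3.49% for peaks enriched over 5-fold, 5.36% for those scoring over 60 and 1.01% on chromosomes 1 to 22 and X. The share of IgG peaks with a c-MYC peak was, in the same order, 5.26%, 8.23%, 14.4%, 68.3% and 3.39%. The promoter difference was 41.4 points with a 500 bp window, 47.2 points with the TSS of every transcript of every gene, 63.3 points at a fold enrichment above 5 and 73.1 points with as many top c-MYC peaks as IgG peaks. The intergenic difference was −25.0 points outside protein-coding genes only, −22.0 points at a fold enrichment above 5 and −27.6 points with equal numbers. The E-box difference was 5.84 points within 50 bp, 20.1 points with CACGTG or CACGCG, 3.62 points outside promoters and 18.6 points at a fold enrichment above 5. The genes with a c-MYC and no IgG promoter peak numbered 2379 with both lists held to a fold enrichment above 5, 13 more than when any IgG peak counts. No paired analysis was possible because the groups are single libraries, which also means that no replicate could be left out.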

Other observations

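Among the noncoding genes at the highest c-MYC-only peaks, members of 3 families recurred. These families were picked after those peaks were seen, so their counts are a description. Other such genes, among them ENSG00000286874 and MIRLET7A1HG with the largest fold enrichments, belong to none of the 3. Of 28 small nucleolar RNA host genes (SNHG), 18 (64.3%, 45.8 to 79.3) had a c-MYC summit within 1 kb of a TSS, and 0 had an IgG summit there. Over all long noncoding RNA genes the c-MYC-only share was 7.38% (7.01 to 7.76), with 1390 of 18842 genes. An IgG summit was present at only 86 of the 18842, so its absence from the SNHG genes says little about them. The 16 c-MYC-only peaks nearest to SNHG starts held 11 to 97 tags, and 9 of them had an E-box within 100 bp. Of all c-MYC-only peaks 11.5% had one. Of 31 genes for U1 and variant U1 RNA, 13 (41.9%, 26.4 to 59.2) had a c-MYC summit and no IgG one, and at RNVU1-30 both antibodies had a summit. Over all 1837 small nuclear RNA genes the c-MYC-only share was 1.85% (1.33 to 2.58). None of the 10 c-MYC-only peaks nearest to U1 starts had an E-box, and 9 of the 10 were called again in AMG510. Of all c-MYC-only peaks 19.3% were called again there, and of the highest 10% by fold enrichment 67.1%. Of 14 FAM86 genes and pseudogenes, 9 (64.3%, 38.8 to 83.7) had a c-MYC summit and 0 an IgG summit, and 6 of the 8 peaks nearest to them had an E-box. Over 3567 unprocessed pseudogenes the c-MYC-only share was 1.15% (0.848 to 1.56), and only 7 had an IgG summit. The U1 and FAM86 families hold near-identical copies, between which tags may have been split, so their members are uncertain. Processed pseudogenes, which are copies without the start region of the source gene, had a c-MYC summit and no IgG summit at 60 of 10139 (0.592%, 0.460 to 0.761).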
